A study of Mus musculus with 6 samples.

Results

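Collagens are the main structural proteins of the extracellular matrix, and in liver tumours they are made by several cell types at once. This report covers the 44 genes whose symbol in the deposited normalized table reads Col, a number, a and a number, out of 55536 genes in the count table, of which 33296 had a count. They were taken by protein family as 11 fibrillar collagens, 6 chains of the basement membrane collagen type IV and 27 other collagens. RNA of 6 tumour samples was sequenced, from male C3H mice that were 6 to 8 weeks old when 1000000 cells of HCA-1, a liver cancer line from mouse, were placed in the liver. The Control group was 3 libraries from untreated mice (numbered 3, 4 and 5). The TSDP group was 3 libraries (numbered 1, 2 and 5) from mice injected into a vein 6 times from day 10 to day 23 with a nanoparticle holding both DNIC, a nitric oxide donor, and sorafenib, a kinase inhibitor used against this cancer. All tumours were taken on day 24. No group given the carrier alone, DNIC alone or sorafenib alone is among the samples used here, all tumours came from 1 cell line, and a bulk tumour sample can also hold host liver and stroma. The question was whether collagen transcripts are at other levels in treated tumours than in untreated ones.

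A collagen molecule is a triple helix of 3 chains. Fibrillar collagens pack into the banded fibres of scar and tumour stroma, and in liver they come chiefly from hepatic stellate cells and fibroblasts. Type IV collagen forms the sheet-like network of basement membranes around vessels and epithelium. The remaining families decorate fibrils, build fine filaments, sit in the cell membrane or bridge basement membranes to stroma.

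The libraries held 32130808 to 38953397 counts each. Values are CPM, counts per 1000000 after TMM scaling, which balances libraries for their overall composition. Throughout, values stand in the order of libraries 3, 4 and 5 for Control and 1, 2 and 5 for TSDP. Control 3 stood apart from the others in hepatocyte marker RNA. The 11 matched hepatocyte marker genes summed to 92.4 CPM there, against 18362 and 3192 CPM in Control 4 and 5 and 27061, 51763 and 17253 CPM in TSDP 1, 2 and 5. Of these 11 markers 8 did not overlap between the groups, all higher in TSDP, against 13.0% of all tested genes, and 0 were at a count of 0 in any library. Afp and Gpc3, oncofetal liver proteins often made by this cancer, were low in every library. Afp lay at 3.27 to 3.68 CPM in Control and 4.24 to 9.20 CPM in TSDP, and Gpc3 at 0.680 to 4.83 CPM over all 6. The labels number the libraries of a group and do not say whether each came from a separate mouse, so p-values measure only the spread between these samples, which may be technical. In bulk tumour RNA, fewer cells of a type and less RNA per cell cannot be told apart.

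By edgeR no collagen passed the test across all genes, while DESeq2 called 4, and the collagen share of all counts overlapped between the groups. It was 0.713%, 0.960% and 1.12% across Control, against 0.968%, 1.14% and 0.805% across TSDP. The mean share, 0.932% ± 0.206 for Control and 0.971% ± 0.168 for TSDP (SD, n = 3 each), differed by less than the spread within a group. The members with the clearest separation were not the abundant fibrillar chains. Col12a1, which sits on fibrils, was lower in all 3 TSDP libraries. Higher in all 3 were Col14a1, which also sits on fibrils, Col18a1, of basement membranes, and the minor fibrillar chain Col27a1. Of the 44 members 36 had enough counts to be tested, 11 fibrillar, 6 type IV and 19 other.

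With edgeR's quasi-likelihood F test and Benjamini-Hochberg adjustment over 17423 genes, 0 of the 36 passed at an adjusted p under 0.05, as did 0 of all genes (0%). At an unadjusted p under 0.05, 4 collagens were higher in TSDP (Col18a1, Col27a1, Col14a1 and Col11a1), 11.1% of those tested against 8.60% of all genes. In the other direction 1 was lower, Col12a1, which is 2.78% against 4.75%. Without overlap between the groups were 3 collagens higher in TSDP (Col27a1, Col18a1 and Col14a1) and 2 lower (Col12a1 and Col6a3), 8.33% and 5.56% of those tested. Both shares were below those over all genes, 13.0% as higher and 8.76% as lower. These edgeR shares lie near or below the background, so none is a result about collagens as a group. By limma-voom 0 genes were called, although 2646 reached an unadjusted p under 0.05, and edgeR had 1499 higher and 827 lower at that level. DESeq2 called 3 collagens higher (Col18a1, Col27a1 and Col14a1) and 1 lower (Col12a1), 8.33% and 2.78% of the collagens against 2.98% and 0.397% of the 18366 genes to which it gave an adjusted p.

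**Figure D1:**
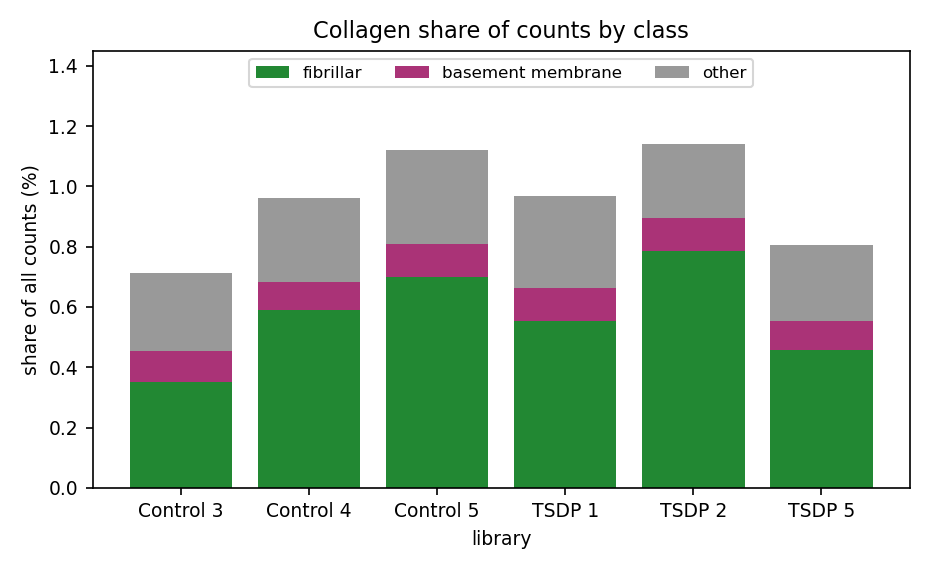
Share of all counts (%, vertical axis from 0) taken by fibrillar, basement membrane and other collagens in each of the 6 libraries (horizontal axis). The total runs from 0.713% in Control 3 to 1.14% in TSDP 2, the fibrillar part varies most, and the basement membrane part stays between 0.0914% and 0.109%.

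The fibrillar share of counts overlapped between the groups, and the abundant chains moved together from library to library. It was 0.350%, 0.590% and 0.700% of counts across Control, against 0.554%, 0.786% and 0.456% across TSDP. Of the 11 tested members 7 had positive and 4 negative log2 fold changes (TSDP over Control), with a median of 0.05 against -0.02 over all tested genes. That median was -0.06 without Control 3, -0.11 without TSDP 2, 0.12 without TSDP 1, 0.16 without TSDP 5 and 0.32 without Control 5. Control 3 gave the lowest value for 6 of the 11 and TSDP 2 the highest for 6.

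Col1a1 (ENSMUSG00000001506), the alpha-1 chain of type I collagen, the main collagen of scar, had 1264, 1997 and 2328 CPM across Control, against 1912, 2828 and 1474 CPM across TSDP. Its groups overlapped, Control from 1264 to 2328 CPM and TSDP from 1474 to 2828 CPM, and the log2 fold change was 0.15 with SE 0.34 (adjusted p by edgeR 0.862). Col1a2, the alpha-2 chain that pairs with it, had 892, 1435 and 1656 CPM, against 1412, 2003 and 1076 CPM, in the same order of libraries. Col3a1, type III collagen, which forms mixed fibrils with type I in liver, had 704, 1640.2 and 1848 CPM, against 1468, 2499 and 1381 CPM. For all 3 genes Control 3 was lowest, TSDP 2 highest, and Control 5 above TSDP 1 and TSDP 5. The log2 fold change of Col3a1 was 0.35 ± 0.42 (SE, adjusted p by edgeR 0.730). These folds hung on single libraries: without Control 3 the values for Col1a1 and Col1a2 were -0.08 and -0.06, and without TSDP 2 they were -0.15 and -0.11.

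The 2 chains of type I collagen kept a nearly fixed count ratio while their levels moved. Col1a1 counts were 1.42, 1.39 and 1.41 times those of Col1a2 across Control, against 1.35, 1.41 and 1.37 across TSDP. By contrast, the Col1a1 to Col3a1 ratio was 1.79, 1.22 and 1.26 across Control, against 1.30, 1.13 and 1.07 across TSDP, with Control 3 the furthest towards Col1a1. Neither ratio differed between groups beyond its spread (exact two-sided permutation p = 0.3 for each, 0.4 after Benjamini-Hochberg adjustment over 4 ratios, where 0.1 is the smallest p that 3 against 3 libraries allow).

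Type V collagen controls where a fibril starts and how thick it grows. Its main chain Col5a1 had 344, 361 and 437 CPM across Control, against 369, 475 and 340.1 CPM across TSDP, giving a log2 fold change of 0.05 ± 0.18 (SE, adjusted p by edgeR 0.917). Col5a2 ranged from 179 to 339 CPM and Col5a3 from 96.8 to 155 CPM over the 6 libraries, both with overlapping groups. Per kilobase of exon, the levels fell in the order Col1a1 (299.7 CPM per kb, mean of 6 libraries), Col3a1 (162), Col1a2 (114), Col5a1 (45.7), Col5a2 (26.8) and Col5a3 (18.0). Next came Col27a1 at 1.38, and every other fibrillar chain was lower.

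Among those low chains, Col27a1 (ENSMUSG00000045672), a fibrillar collagen known best from cartilage, was the 1 fibrillar member without overlap. It had 3.65, 10.2 and 9.07 CPM across Control (118, 334 and 365 counts), against 19.3, 51.5 and 14.1 CPM across TSDP (704, 1783 and 505 counts). TSDP 2 was far above the rest, and the lowest TSDP library was the closest to Control. The log2 fold change 1.89 ± 0.60 (SE, adjusted p by edgeR 0.334) was 1.11 without TSDP 2 and 1.54 without Control 3, and 0.82 with a hepatocyte score, the mean log2 CPM of the hepatocyte markers, as a covariate. That score was lower in every Control library than in any TSDP library, so this fit cannot cleanly part it from the group. Within each group the order of the libraries was that of the hepatocyte markers. By mean log2 CPM, markers of fibroblasts and of sinusoidal endothelium had that order too, and those of stellate cells did not. Across Control the hepatocyte markers summed to 92.4 to 18362 CPM, while Col27a1 ran from 3.65 to 10.2 CPM. The part of hepatocyte RNA in this value was not tested.

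Col11a1, which nucleates thin fibrils and is used as a marker of tumour-associated fibroblasts, had 5.99, 4.48 and 3.13 CPM across Control, against 14.2, 14.1 and 4.02 CPM across TSDP. TSDP 1 and 2 were above every Control library and TSDP 5 was among them, and the log2 fold change was 1.25 ± 0.51 (SE, adjusted p by edgeR 0.374). Its partner Col11a2 lay between 1.54 and 5.10 CPM with overlap. Col24a1 had 1.14, 2.27 and 1.54 CPM across Control, against 1.48, 1.36 and 0.921 CPM across TSDP. Col2a1, the cartilage collagen, had 104 counts in Control 3 and 5 to 28 in each other library, and its log2 fold change of -1.68 ± 1.20 (SE) was 0.55 without Control 3. In the chondrocyte marker list 3 of 4 tested genes had positive log2 fold changes and Matn1 was at 0 in every Control library. Acan, the cartilage proteoglycan, was at 2.04 CPM in Control 3 and 0.0279 to 6.42 CPM elsewhere. Their part in the Col2a1 value was not tested.

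**Figure D2:**
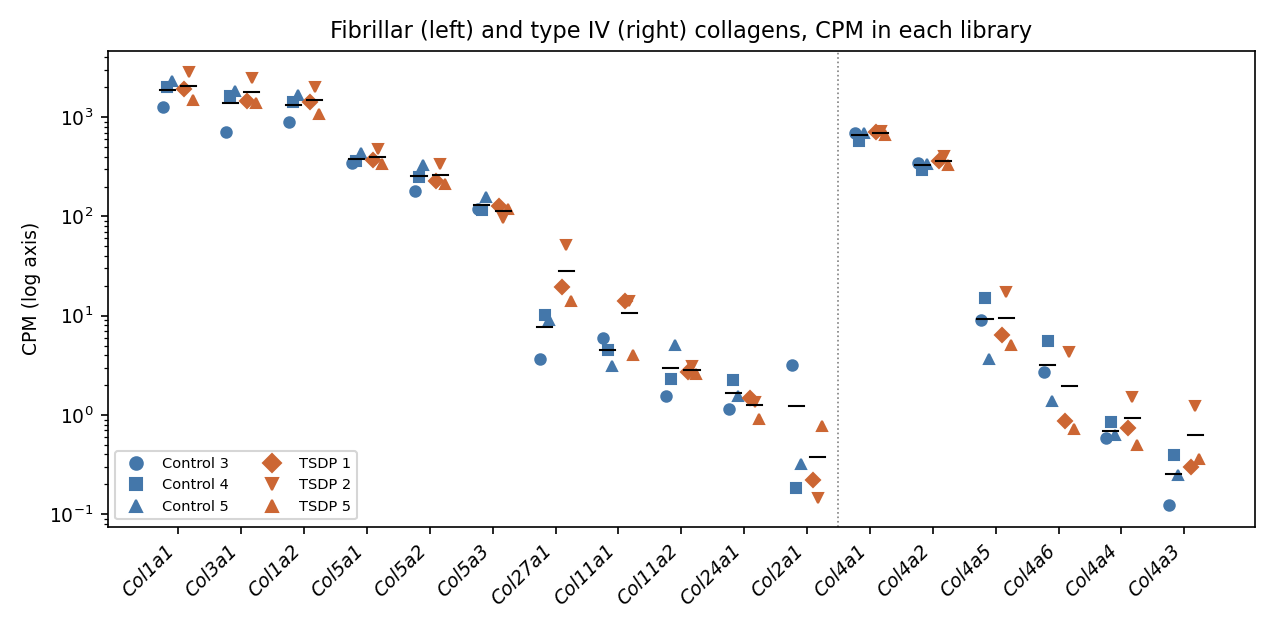
CPM on a log axis (vertical) of the 11 fibrillar and 6 type IV collagens (horizontal), 1 point for each library, with a line at each group mean (n = 3). The points of Col4a1 and Col4a2 lie close together, those of Col1a1, Col3a1 and Col1a2 spread with Control 3 lowest, and Col27a1 is the 1 gene whose groups do not overlap.

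Type IV collagen, the class taken here as basement membrane collagen, held a similar share of counts in every library and had 0 members without overlap. Col18a1, also found in basement membranes, is given with the other collagens. The 6 type IV chains took 0.105%, 0.0914% and 0.108% of counts across Control, against 0.108%, 0.109% and 0.0981% across TSDP. Their median log2 fold change was 0.12, with 5 of 6 positive. Without TSDP 2 that median was -0.05, and without the other libraries one at a time it lay between 0.14 and 0.34. Nearly all of the signal came from the ubiquitous pair Col4a1 and Col4a2, whose chains join in a 2 to 1 molecule, at 97.6% to 99.4% of type IV counts in each library.

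Col4a1 (ENSMUSG00000031502) had 690.5, 582 and 698 CPM across Control, against 711, 724 and 661 CPM across TSDP. The highest library was 1.24 times the lowest, against 3.55 times for Col3a1, and the log2 fold change was 0.09 ± 0.15 (SE, adjusted p by edgeR 0.808). Col4a2 (ENSMUSG00000031503) had 348, 297 and 339 CPM, against 366, 402 and 329 CPM, giving a log2 fold change of 0.16 ± 0.14 (SE, adjusted p by edgeR 0.635). The libraries of the groups interleaved for both genes, with TSDP 5 the lowest of its group. The Col4a1 to Col4a2 count ratio was 1.98, 1.96 and 2.06 across Control, against 1.94, 1.80 and 2.01 across TSDP (exact two-sided permutation p = 0.4, adjusted 0.4). The genes lie head to head, and in GENCODE M21 22 exon bases are shared by both on opposite strands, a small part of either gene.

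The 4 tissue-restricted type IV chains, best known from kidney, lens and other specialised membranes, were low. Col4a5 had 9.05, 15.1 and 3.65 CPM across Control, against 6.33, 17.3 and 5.11 CPM across TSDP. Col4a6, its neighbour on the X chromosome, had 2.69, 5.52 and 1.39 CPM, against 0.876, 4.28 and 0.725 CPM. For these 2 genes Control 4 and TSDP 2 were the high libraries, whatever the group. Col4a3 had 0.124, 0.399 and 0.249 CPM across Control, against 0.301, 1.24 and 0.363 CPM across TSDP. Its log2 fold change, 1.29 ± 0.70 (SE, adjusted p by edgeR 0.459), was 0.35 without TSDP 2. Col4a4, its neighbour in the genome, had 0.587, 0.859 and 0.621 CPM, against 0.739, 1.53 and 0.502 CPM. Both were highest in TSDP 2. Of the Col4a3 exon bases 5.65% are shared with a gene on the other strand.

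Partners of type IV collagen in the basement membrane gave 0 of 16 called, with 9 positive and a median log2 fold change of 0.04. Nid1, nidogen, which links the laminin and collagen networks, lay between 257 and 319.5 CPM with overlap. The groups did not overlap for Nid2, higher in TSDP, and for the laminin chains Lama5, Lamb2 and Lamc1, lower in TSDP (13.0% and 8.76% over all genes). Lamb2 had 117, 119 and 116 CPM across Control, against 74.3, 58.5 and 95.8 CPM across TSDP (log2 fold change -0.63 with SE 0.19, adjusted p by edgeR 0.334). Markers of vascular endothelium, the cells that make much of the type IV network, summed to 176 to 259 CPM in Control and 261 to 419 CPM in TSDP, with 10 of 10 members positive, 4 of them higher without overlap (13.0% over all genes), and 0 at a count of 0. Their part in the type IV values was not tested.

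Of the members without overlap, the other collagens held 2 of the 3 higher in TSDP and 2 of the 2 lower. As a class they took 0.258%, 0.278% and 0.314% of counts across Control, against 0.306%, 0.246% and 0.251% across TSDP. Of 19 tested members 8 had positive and 11 negative log2 fold changes, with a median of -0.07 and a range from -0.99 to 1.28. That median was 0.10 without Control 4, 0.06 without TSDP 1 and 0.07 without TSDP 5.

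Col12a1 and Col14a1 are close relatives, both fibril-associated collagens with interrupted triple helices that coat type I fibrils, and they stood on opposite sides. Col12a1 (ENSMUSG00000032332), found in tendon, wound and tumour stroma, had 347, 345 and 364 CPM across Control (11249, 11245 and 14632 counts), against 135, 216 and 181 CPM across TSDP (4914, 7462 and 6474 counts). The Control libraries lay close together, and each TSDP library was far below them. The group means were 352 CPM ± 10.2 and 177 CPM ± 40.6 (SD, n = 3 each). Control was 1.99-fold higher by the fit, the log2 fold change being -0.99 with SE 0.19, and the adjusted p was 0.326 by edgeR and 0.000323 by DESeq2. Leaving out each library in turn gave values from -1.17 to -0.83, and the hepatocyte covariate -1.04.

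Col14a1 (ENSMUSG00000022371), undulin, had 30.4, 62.5 and 85.6 CPM across Control, against 133, 197 and 103 CPM across TSDP. Both groups were spread over a wide range, and the lowest TSDP library was above the highest Control library. Group means were 59.5 CPM ± 27.7 for Control and 144 CPM ± 47.7 for TSDP (SD, n = 3 each), 2.43-fold higher in TSDP by the fit. Its log2 fold change was 1.28 with SE 0.41, and the adjusted p was 0.334 by edgeR and 0.0387 by DESeq2. Without Control 3 the log2 value was 0.95, without TSDP 2 it was 0.98, and with the hepatocyte covariate 0.51. In the list of hepatic stellate cell and pericyte markers 9 of 10 had positive log2 fold changes with a median of 1.04, 5 were higher without overlap (13.0% over all genes) and 0 were at a count of 0. That list summed to 477 to 686 CPM in Control and 519.5 to 891 CPM in TSDP. Lrat, the retinol-storing enzyme of quiescent stellate cells, was named after its values were seen. It had 0.0309, 3.47 and 5.17 CPM across Control, against 8.93, 18.0 and 6.50 CPM across TSDP. Control 3 was lowest and TSDP 2 highest, as for Col14a1 and also for Col1a1, Col1a2 and Col3a1. The Lrat value in Control 3 lies below the 0.0927 CPM that a count of 0 allows in that library. The part of stellate cell content in the Col14a1 value was not tested.

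Fibroblast and myofibroblast markers gave no such separation. They summed to 1107 to 1305 CPM in Control and 1086 to 1489 CPM in TSDP, with 9 of 12 positive, 0 without overlap and 0 at a count of 0. Their median log2 fold change was 0.53. At an unadjusted p under 0.05 by edgeR, 0 were higher and 1 was lower, Mfap5 (8.60% and 4.75% over all genes). Dcn, decorin, had 52.1, 204 and 174 CPM across Control, against 206, 480.3 and 159 CPM across TSDP.

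Col18a1 (ENSMUSG00000001435) encodes type XVIII collagen, a heparan sulphate-bearing collagen of basement membranes whose end piece is endostatin, an inhibitor of vessel growth. Hepatocytes are a known source of it. It had 279, 305 and 299.9 CPM across Control (9041, 9950 and 12065 counts), against 498, 555 and 401 CPM across TSDP (18187, 19213 and 14369 counts). The Control libraries were tightly grouped and every TSDP library was well above them. Means were 295 CPM ± 13.7 and 485 CPM ± 78.0 (SD, n = 3 each), 1.64-fold higher in TSDP by the fit. That is 0.72 on the log2 scale with SE 0.16, at an adjusted p of 0.326 by edgeR and 0.00334 by DESeq2. Values without each library in turn ran from 0.60 to 0.83, and the hepatocyte covariate gave 0.59. Within each group the libraries stood in the same order for Col18a1 as for the hepatocyte markers. That order was not particular to them. By mean log2 CPM the fibroblast and the sinusoidal endothelium markers also had it, and the stellate cell markers did not. Across Control the hepatocyte markers summed to 92.4 to 18362 CPM, while Col18a1 ran from 279 to 305 CPM. Control 4 was above TSDP 5 in summed marker CPM (18362 against 17253) but below it in their mean log2 CPM (8.75 against 9.08) and in Col18a1. The part of these markers in the Col18a1 value was not tested.

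Its relative Col15a1, the other multiplexin, found at vessel and muscle basement membranes, ranged from 207 to 342 CPM in Control and from 245 to 349 CPM in TSDP, and the log2 fold change was 0.24 ± 0.25 (SE, adjusted p by edgeR 0.683). The difference between their fold changes was not tested.

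Promoter stretches are shown for the members without overlap that RefSeq's GRCm38.p6 table holds, so that their upstream context can be read beside the values. They give the bases before each start, 5′ to 3′ on the gene's strand and outside annotated exons: the upstream one of the starts of Col18a1 (chr10:77166549-77166780, minus strand), Col27a1 (chr4:63215162-63215411, plus strand) and Col6a3 (chr1:90843972-90844221, minus strand). Capitals mark motifs, of which 3 were searched for on both strands and none overlap. The GC box is spelled GGGCGG and is known to bind Sp1-type factors. The CCAAT box is known by the letters of its name. The TATA box is spelled TATAAA and was found in none of these stretches.
Col18a1: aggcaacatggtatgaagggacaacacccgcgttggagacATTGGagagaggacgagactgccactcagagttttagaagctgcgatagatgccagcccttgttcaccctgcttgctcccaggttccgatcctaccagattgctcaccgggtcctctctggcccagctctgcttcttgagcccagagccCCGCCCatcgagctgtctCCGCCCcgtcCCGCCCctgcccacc
Col27a1: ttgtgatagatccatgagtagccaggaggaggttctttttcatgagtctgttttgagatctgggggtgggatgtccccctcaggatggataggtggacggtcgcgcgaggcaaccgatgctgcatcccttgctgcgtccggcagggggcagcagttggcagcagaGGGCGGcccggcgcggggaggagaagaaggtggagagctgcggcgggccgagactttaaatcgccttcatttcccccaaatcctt
Col6a3: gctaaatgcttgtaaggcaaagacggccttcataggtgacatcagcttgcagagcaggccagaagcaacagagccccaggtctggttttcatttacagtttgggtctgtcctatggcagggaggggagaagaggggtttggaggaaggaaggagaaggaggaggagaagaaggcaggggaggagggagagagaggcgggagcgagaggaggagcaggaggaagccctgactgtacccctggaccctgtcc
The Col18a1 stretch holds 3 GC boxes, 61, 43 and 33 bases before the start, and 1 CCAAT box, 210 bases before it, all read on the reverse strand. Col27a1 holds 1 GC box, 85 bases before its start, and the Col6a3 stretch none of the 3 motifs. Of 32851 RefSeq windows of 250 bases, 32.7% hold the GC box, 33.8% the CCAAT box and 12.4% the TATA box. These matches describe letters only, and the counts cover each gene as a whole, so the starts of Col18a1 cannot be read apart.

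**Figure D3:**
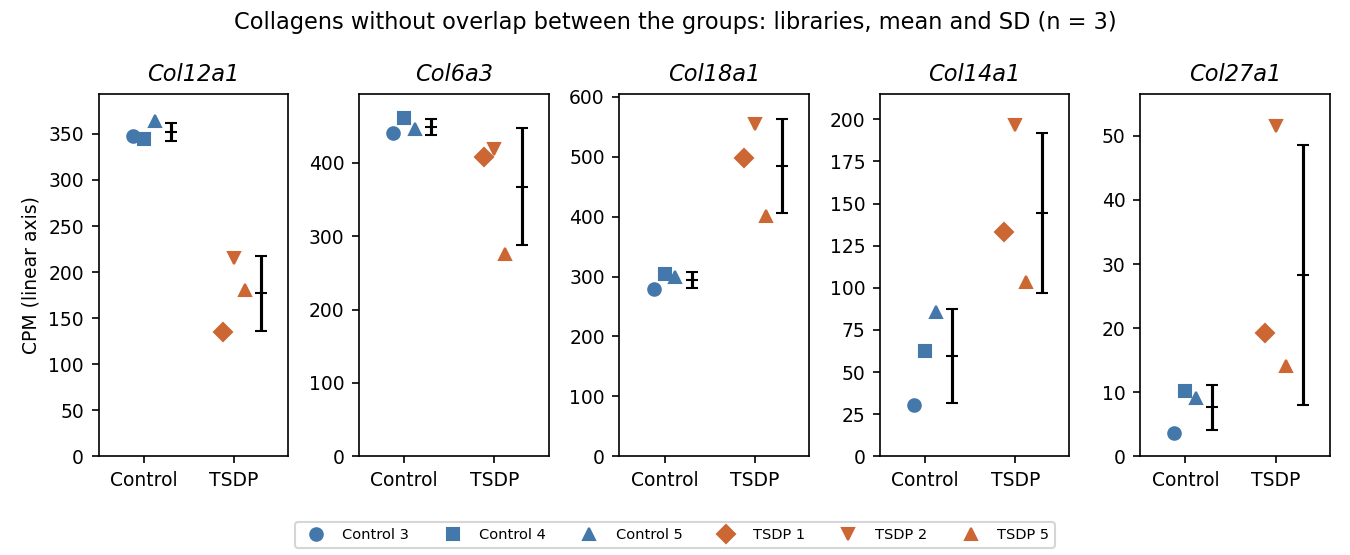
CPM (vertical axes, linear, from 0) of the 5 collagens whose groups do not overlap, with each library as a point and the group mean with SD beside it (n = 3). Col12a1 is at 345 CPM or more in Control and 216 CPM or less in TSDP, Col18a1 at 305 CPM or less and 401 CPM or more, and the TSDP 2 point sets the width of the Col27a1 bar.

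Type VI collagen forms beaded filaments near the cell surface from 3 kinds of chain. Col6a1 had 749.6, 765 and 912 CPM across Control, against 904, 451 and 770.1 CPM across TSDP. Col6a2, its neighbour in the genome, had 417, 413 and 473 CPM, against 509, 259 and 446 CPM. TSDP 2, the highest library for type I and III collagen, was the lowest for these. Their log2 fold changes were -0.19 ± 0.28 and -0.10 ± 0.26 (SE, adjusted p by edgeR 0.778 and 0.881), and without TSDP 2 they were 0.04 and 0.13. The Col6a1 to Col6a2 count ratio was 1.80, 1.85 and 1.93 across Control, against 1.77, 1.74 and 1.73 across TSDP, without overlap (exact two-sided permutation p = 0.1, adjusted 0.4).

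Col6a3 (ENSMUSG00000048126), the large chain whose end piece is endotrophin, had 441, 462 and 445 CPM across Control, against 408, 419 and 276 CPM across TSDP. The groups did not overlap, yet TSDP 1 and 2 were just under Control and TSDP 5 well below. The log2 fold change was -0.29 ± 0.19 (SE, adjusted p by edgeR 0.524) and -0.12 without TSDP 5. The alternative chains Col6a5 and Col6a6, which lie side by side, varied from 1.58 to 54.4 CPM and from 0.474 to 5.23 CPM, with TSDP 2 and Control 4 highest for both. Per kilobase of exon Col6a1 averaged 173 CPM, above Col3a1 among all collagens and below Col1a1.

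The remaining tested members overlapped between the groups. Col8a1, a short-chain collagen of vessel walls, lay between 75.8 and 95.3 CPM, Col16a1, a fibril-associated collagen, between 14.3 and 28.1 CPM, and Col7a1, which forms the anchoring fibrils of skin, between 12.6 and 18.1 CPM. Col20a1 and Col9a3, both fibril-associated, and Col8a2, the other type VIII chain, each stayed at 3.26 CPM or less in every library. The transmembrane collagens were scarce: Col13a1 at 0.472 to 2.14 CPM, Col17a1 at 0.797 to 0.994 CPM and Col23a1 at 0.0309 to 3.03 CPM. Col28a1 lay between 0.0837 and 1.07 CPM. Another 8 members had at most 12 counts in any library and were not tested: Col25a1, Col10a1, Col6a4, Col22a1, Col9a2, Col19a1, Col9a1 and Col26a1. These include chains known best from cartilage, such as Col10a1 and the type IX chains. A count of 0 allows up to 3 counts, 0.0746 to 0.0927 CPM depending on the library, from counting error alone.

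**Figure D4:**
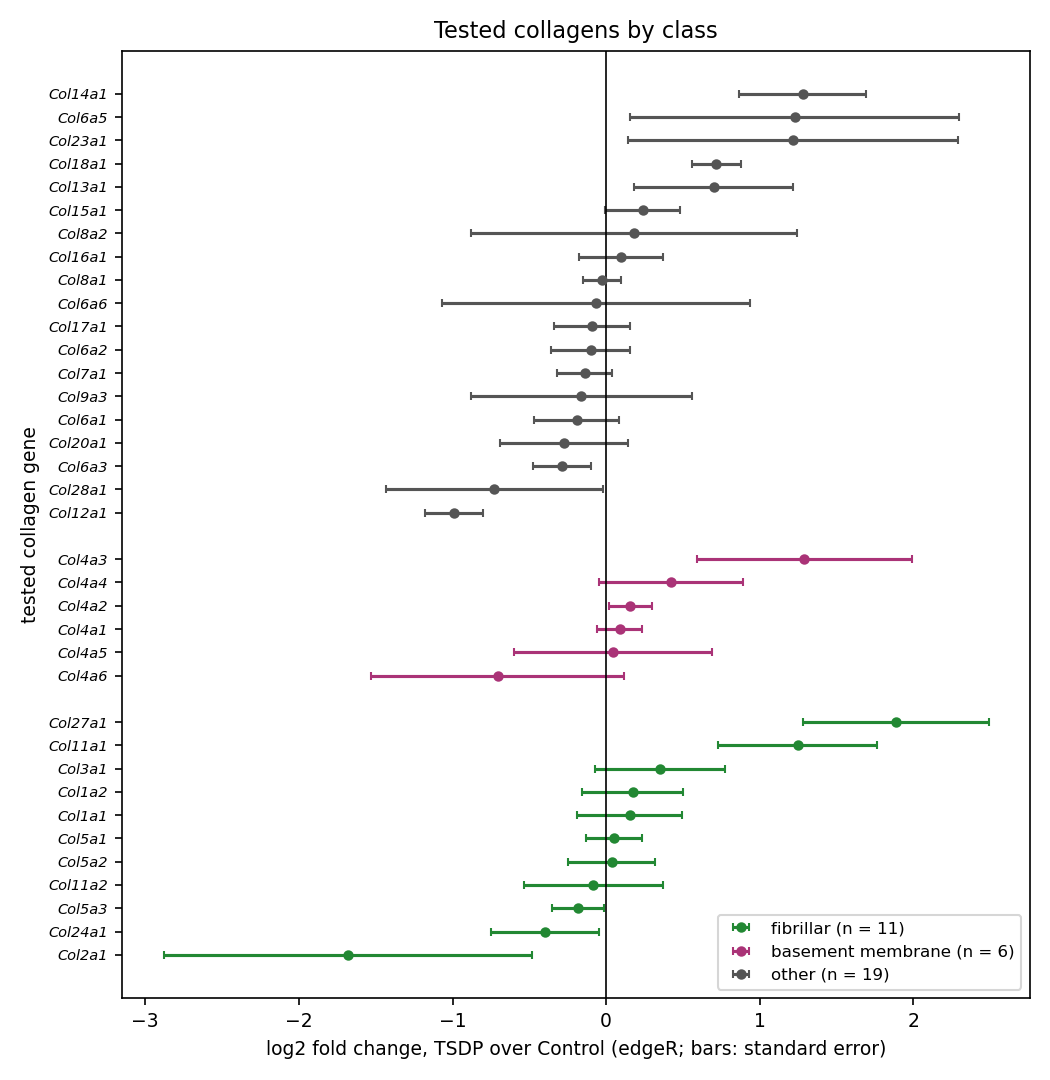
Log2 fold change of TSDP over Control (horizontal axis, edgeR, bars are standard errors) for the 36 tested collagens (vertical axis) by class. Most points lie near 0, and Col12a1 and Col18a1 have short bars away from 0. The widest bars belong to low genes, but Col17a1, also low, has a shorter bar (SE 0.25) than Col1a1 (SE 0.34).

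The enzymes that build collagen gave no call by edgeR. Of 21 genes for hydroxylation, folding and export of procollagen, 0 were called, 15 were positive and the median log2 fold change was 0.10. P4hb, the shared subunit of prolyl hydroxylase, lay between 977 and 1235 CPM with overlap. P4ha2, a catalytic subunit of the same enzyme, had 50.4, 43.8 and 61.1 CPM across Control, against 26.9, 41.7 and 33.5 CPM across TSDP, lower without overlap (log2 fold change -0.61 with SE 0.20, adjusted p by edgeR 0.334). In the other direction Colgalt1, which adds galactose to hydroxylysine of collagen, was higher without overlap, with 76.4, 74.7 and 79.7 CPM across Control, against 86.1, 94.1 and 84.6 CPM across TSDP. Its log2 fold change was 0.20 with SE 0.10 (adjusted p by edgeR 0.421). Without overlap were thus 1 of 21 genes in each direction, against 13.0% as higher and 8.76% as lower over all genes.

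Procollagen processing genes gave 0 of 7 called, with 3 positive and a median of -0.09. Bmp1, the proteinase that trims the C-propeptide, ranged from 88.9 to 167 CPM, and Adamts2, which trims the N-propeptide, from 47.7 to 116 CPM. The 5 lysyl oxidases, which cross-link fibrils, gave 0 called, 2 positive and a median of -0.03, with Lox between 69.9 and 138 CPM. For both lists the groups overlapped for every tested member.

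Fibril regulators and small proteoglycans gave 0 of 12 called and a median of -0.06. Fn1, fibronectin, was the most abundant, with 12931, 8063 and 14471 CPM across Control against 9329, 4760 and 9656 CPM across TSDP, so the groups overlapped. Fmod, fibromodulin, a small proteoglycan that binds fibrils, was highest in Control 3 at 39.7 CPM and Control 4 at 35.3 CPM, and at 16.0 CPM or less in the other libraries. Collagen receptors gave 0 of 9 called and a median of -0.17. Itgb1, the beta subunit shared by the collagen-binding integrins, lay between 953 and 1420.1 CPM. Ddr1, a receptor tyrosine kinase for collagen, had 55.7, 58.0 and 62.5 CPM across Control, against 46.0, 45.9 and 48.1 CPM across TSDP, lower without overlap (log2 fold change -0.33 with SE 0.09, adjusted p by edgeR 0.326). Among the 9 tested receptors 1 was lower without overlap, against 8.76% of all genes. In the other direction Itga1, the alpha subunit of a collagen-binding integrin, had 42.01, 44.4 and 64.7 CPM across Control, against 80.9, 111 and 63.6 CPM across TSDP, with overlap. Its log2 fold change was 0.76 with SE 0.26 (adjusted p by edgeR 0.337).

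Degradation genes gave 0 of 10 called, 5 positive and a median of -0.01. Timp2, an inhibitor of matrix metalloproteinases, was both the most abundant and the one with the smallest p. It had 993, 824 and 863 CPM across Control, against 677, 573 and 759.9 CPM across TSDP, lower without overlap (log2 fold change -0.42 with SE 0.17, adjusted p by edgeR 0.378). Of the 10 degradation genes 1 was lower without overlap, against 8.76% of all genes. In the 7 pathway lists together, 0 genes passed across all genes tested, by edgeR or by DESeq2.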

How the data were processed

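Per the labels' protocols, tumour RNA from an RNeasy kit went into KAPA mRNA HyperPrep libraries. The tools named in the submitters' processing notes include Trimmomatic 0.38 for trimming, HISAT2 2.1.0 for alignment and featureCounts 2.0.0 for counting. The genome build, the annotation and whether counting used strand are each not given in the sources used here. Whether reads from a gene and its antisense partner were counted apart is therefore not known. The authors deposited whole read counts per Ensembl gene, and a normalized signal equal to the count over 1 constant per library (largest relative departure 5.2e-15), which per the file headers carries the symbols.

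Members were matched by symbol, and Control and TSDP by sample title. Counts were tested with edgeR 4.0.16 in R 4.3.3 (TMM, filterByExpr with minimum count 10, glmQLFit, glmQLFTest, group term alone, Benjamini-Hochberg over 17423 genes at 0.05). Each SE was derived from the log2 fold change and the square root of its F statistic. Alternatives were DESeq2 1.42.0, limma-voom 3.58.1, DESeq2 size factors, other filters, a covariate made of the mean log2 CPM of hepatocyte markers, and fits without each library in turn. A bias-adjusted form of edgeR's quasi-likelihood fit, not planned beforehand, was a further alternative. Exon lengths came from GENCODE M21, whose 55450 genes all occur in the table. These are unions over isoforms, so levels per kilobase are lower for genes with many isoforms. Of the 44 members, 35 had a RefSeq promoter. Single values were compared by exact permutation. No 2 libraries were duplicates (chi-square per gene of 47.7 or more). The edgeR steps were tested on simulated data.

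Members, classes and lists were chosen with earlier results of these data known. Values are given in each library for the 4 most abundant and the 4 smallest-p members of each class and for those of mean CPM of at least 1 without overlap. Each pathway list is represented by its most abundant and its smallest-p gene. Lrat, Dcn, Mfap5, Acan, Spp1, Cd4, Itga1, Colgalt1, Nid2, Lama5 and Lamc1 were named after their values were seen. Of the 12 hepatocyte symbols 11 matched. Marker lists of smooth muscle, mesothelium, sinusoidal endothelium, cholangiocytes, macrophages and T cells were also measured, and the closing section gives them.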

Additional observations from a re-analysis of the deposited data

How the results depend on the processing

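Under the edgeR and limma-voom alternatives, 0 collagens were called in every class, all libraries left out in turn included. DESeq2 called 1 fibrillar and 3 other collagens and 620 of all genes, and edgeR without a filter on low counts called 1 gene, no collagen. The mean log2 CPM of the hepatocyte markers was 1.32, 8.75 and 6.46 across Control, against 9.74, 10.7 and 9.08 across TSDP. As a covariate it is therefore confounded with the group, and the values adjusted for it cannot separate the 2. With the hepatocyte covariate the median log2 fold change of fibrillar collagens was -0.36, and signs turned for Col1a1 (-0.38), Col3a1 (-0.46), Col1a2 (-0.36), Col5a1 (-0.0895), Col2a1 (1.96), Col4a5 (-0.41) and Col4a4 (-0.0435). Leaving out 1 library at a time, the log2 fold change ran from -0.15 to 0.34 for Col1a1, -0.11 to 0.36 for Col1a2, -0.11 to 0.14 for Col5a1, -2.74 to 0.55 for Col2a1, -0.71 to 0.59 for Col4a5, -0.16 to 0.71 for Col4a4, -0.40 to 0.0390 for Col6a1 and -0.30 to 0.13 for Col6a2. None of these passed the test, and the cause was not tested. Of 20 named collagens, 9 changed sign under some alternative, and Col12a1, Col18a1, Col14a1, Col27a1 and Col6a3 kept theirs under all. Over the alternatives the adjusted p ran from 0.000323 to 0.687 for Col12a1, 0.00334 to 0.887 for Col18a1, 0.0387 to 0.930 for Col14a1 and 0.0172 to 0.930 for Col27a1, the lowest from DESeq2 each time. In an analysis chosen after seeing the data, 5 to 10 collagens were without overlap when 1 library was left out, 10 without Control 4 and 8 without Control 5 or TSDP 5, and the share over all genes rose too, to 22.9% higher and 19.2% lower without Control 4. No paired analysis was possible because the groups share only replicate number 5. Depth limits only the low members, such as the 8 with at most 12 counts in a library.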

Other observations

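Marker lists of other cell types, measured beside the collagens, are given as values with no explanation. Liver sinusoidal endothelium markers summed to 270.0 to 458 CPM across Control, against 443 to 800.1 CPM across TSDP, with 7 of 8 positive and 5 higher without overlap (13.0% over all genes). Smooth muscle markers summed to 132 to 169 CPM and 167 to 244 CPM, with 5 of 6 positive and 1 higher without overlap (13.0% over all genes). Macrophage markers lay at 1273 to 2052 CPM and 1848 to 2519 CPM, with 5 of 7 positive. T cell markers lay at 64.7 to 89.0 CPM and 93.0 to 113 CPM, with 6 of 6 positive and Cd4 alone higher without overlap (1 of 6, against 13.0% over all genes). Mesothelial markers summed to 201 to 353 CPM and 94.0 to 275 CPM, with 2 of 5 positive. In the cholangiocyte list 2 of 6 were positive, and Spp1, osteopontin, carried most of its sum with 4689, 3232 and 8704 CPM across Control 3, 4 and 5, against 5178, 1978 and 7150 CPM across TSDP 1, 2 and 5, and Cftr was at 0 in a library.

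TSDP 2 held the highest value for 19 of the 36 tested collagens and TSDP 5 for 0, while Control 3 held the lowest for 13 and TSDP 5 for 10. These counts mostly concern different genes. TSDP 2 was highest and TSDP 5 lowest for the same gene only in Col5a1, Col4a4, Col16a1 and Col6a6. TSDP 2 was also the lowest library for Col6a1, Col6a2, Col5a3 and Col2a1.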
